A study of Mus musculus with 12 samples.

Results

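The genes described here carry the symbols of mitochondrial ribosomal proteins. They were taken by symbol, as every gene named Mrpl or Mrps with a number and without the pseudogene ending, which gave 77 genes of the 24590 listed in any library. Of these, 48 carry large subunit (Mrpl) symbols and 29 small subunit (Mrps) symbols, and they lie on 17 chromosomes. The rule takes in Mrps36, later assigned to another complex, and leaves out mitochondrial ribosomal proteins with other symbols. All 77 reached the mean of at least 1 FPKM (fragments relative to the length of the transcript and the size of the library) that was required for testing, among 14231 genes in all.

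The mitochondrial ribosome translates the few messenger RNAs made from mitochondrial DNA, whose products are core subunits of the respiratory chain and of ATP synthase. Its ribosomal RNAs come from mitochondrial DNA, whereas its proteins are encoded in the nucleus, made in the cytosol and imported. Some of the proteins have counterparts in the bacterial ribosome and others are particular to mitochondria. Neurons depend on the respiratory chain for most of the ATP that synaptic transmission consumes, and inherited defects of several of these proteins cause disease of brain and heart.

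RNA came from the hippocampi of 12 mice of 2 lines that carry deletions in Shank2, the gene of a postsynaptic scaffold protein. The groups were 3 mice with exons 6 and 7 deleted and 3 wild-type controls of that line (the exon 6-7 line), and 3 mice with exon 7 deleted and 3 wild-type controls (the exon 7 line). All were of a background recorded as mixed C57BL/6J and C57BLl/6N; for the behavioural part of the study the protocol names male knockout and wild-type littermates of 8 to 15 weeks. Every mouse has its own number, so that p-values rest on the spread between animals. Mice are listed throughout in the order WT778, WT809, WT865 (exon 6-7 wild type), KO776, KO777, KO864 (exon 6-7 knockout), WT628, WT993, WT999 (exon 7 wild type), KO969, KO990, KO994 (exon 7 knockout).

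Shank2, the targeted gene, stood at 14.4, 13.8 and 14.9 FPKM in the exon 6-7 wild types and at 6.22, 7.02 and 6.15 in the knockouts, with no overlap (log2 fold change -1.04, SE 0.119, limma adjusted p = 0.0113). In the exon 7 line it was at 36.0, 42.4 and 44.1 in the wild types and 33.2, 43.5 and 44.6 in the knockouts, which overlapped. A value for the whole gene does not show whether an exon is missing. Between 19515 and 20334 genes were listed per library, and the read depth is unknown because FPKM values hold no counts. The share of transcripts from mitochondrial DNA was 6.22 to 7.39% in exon 6-7 mice and 10.3 to 14.3% in exon 7 mice. The lines may also have been processed at different times, which the labels do not record, so that line and any batch cannot be told apart. All 8 neuronal markers examined were listed in every library, as were all 8 choroid plexus markers. In 4 libraries (WT778, KO776, WT628 and KO969, called set A) the gene ENSMUSG00000095746 was not listed, and these libraries stood apart from the other 8.

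The stretch before the RefSeq start is shown for 4 genes as examples. Whether motifs relate to expression was not tested. Mrpl52 and Mrps24 had the largest falls between the lines, Mrps2 did not fall, and Mrpl43 carried 2 matches to one motif. The sequences are the 100 bases upstream of the RefSeq start (GRCm38.p6, gene strand, 5′ to 3′), a window that held no annotated exon. For Mrps24 this window lies inside the gene as annotated in GENCODE (chr11:5703983-5715680, minus strand), downstream of its annotated 5′ end. Capitals mark matches to the motifs described next, on either strand. The window of Mrpl52 is chr14:54426809-54426908 (plus strand), that of Mrps24 chr11:5707702-5707801 (minus strand), that of Mrps2 chr2:28467966-28468065 (plus strand) and that of Mrpl43 chr19:45006443-45006542 (minus strand).
Mrpl52: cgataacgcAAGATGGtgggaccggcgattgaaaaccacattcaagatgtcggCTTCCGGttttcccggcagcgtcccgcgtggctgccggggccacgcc
Mrps24: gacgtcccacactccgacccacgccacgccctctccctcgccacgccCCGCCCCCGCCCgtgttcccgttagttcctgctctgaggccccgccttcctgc
Mrps2: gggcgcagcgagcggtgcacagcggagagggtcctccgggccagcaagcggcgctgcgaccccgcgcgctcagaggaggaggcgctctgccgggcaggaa
Mrpl43: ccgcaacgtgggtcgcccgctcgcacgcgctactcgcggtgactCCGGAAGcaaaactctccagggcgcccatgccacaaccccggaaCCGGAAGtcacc

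A promoter of 300 bases (250 before to 50 after the start) was at hand in RefSeq for 68 of the 77 genes, and 5 motifs were searched there on both strands. A gene was counted if any of its promoters held the motif. CCGGAAG, the core bound by ETS factors such as the GA-binding protein, was in 25 of the 68 (36.8%). The shares were 19% of 10484 tested genes and 9.93% of all 27025 genes with a promoter. AAGATGG, the core of the YY1 motif, was in 13 (19.1%), against 8.27% and 7.28%. The palindromic core motif of nuclear respiratory factor NRF1 was in 3 (4.41%), against 2.22% and 1.07%. The GC box GGGCGG went the other way: it was in 34 genes (50%), against 69.4% of the tested genes, and 38.2% of all. TATAAA was in 5 (7.35%), against 8.59% and 15.7%. Mrpl52, Mrps12, Mrps18a and Mrps27 held both the ETS and the YY1 core. These matches describe letters in a window and are not binding sites.

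Many of the genes share a start region with a neighbour. A protein-coding gene on the opposite strand began within 1000 bases upstream of the start of 18 of the 77 genes (23.4%). That held for 9.62% of 12870 tested protein-coding genes. Pairs whose starts overlap, such as Mrpl44 and Wdfy1, were not counted. Mrps12, whose protein sits at the decoding centre of the small subunit, faces Sars2, the mitochondrial seryl-tRNA synthetase, at 172 bases. Exons of another gene overlapped 32 of the 77 genes, 28 of them on the opposite strand and 7 on the same strand. The sources used here do not say whether the counting used strand, so the values of overlapping pairs, such as Mrpl46 and Mrps11, which overlap each other, are uncertain. Shared sequence was checked as windows of 50 bases found in other annotated genes, including genes that overlap a member on the same strand. More than 10% of the windows were shared for 14 genes and more than 30% for 7. At the top were Mrpl53 (100% with Gm42688, which overlaps it on the same strand) and Mrpl23 (66.7% with its pseudogene Mrpl23-ps1). Mrps6 (32.2% with Gm49711) and Mrps18c (10.1% with Gm43511) also shared windows with a gene overlapping on the same strand. The counts therefore do not separate copies elsewhere from overlapping annotation.

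Mean levels over the 12 mice ran from 2.29 FPKM for Mrpl23 to 104 for Mrps21, with a median of 30.2, against 11.5 for all genes tested. The 5 highest were Mrps21, Mrpl41, Mrpl42, Mrpl20 and Mrps12, at 104, 78.7, 68.5, 65.9 and 62.5 FPKM. Mrps21, a small subunit protein with a bacterial counterpart, was the highest of the 77 in each of the 12 libraries. The 5 lowest were Mrpl57, Mrpl47, Mrpl35, Mrpl1 and Mrpl23, at 9.02, 8.96, 7.69, 5.58 and 2.29 FPKM. Mrpl23, a protein at the exit of the nascent chain, stood at 2.03 to 2.88 FPKM in the exon 6-7 line while Mrpl23-ps1 stood at 13.9 to 22.9, and the sources used here do not say how reads were divided between the 2. Within a line the median coefficient of variation of a gene over 6 mice was 10.2% (exon 6-7) and 11.3% (exon 7). It was widest for Mrpl55 in the exon 6-7 line (33.0%) and for Mrpl17 in the exon 7 line (37.3%).

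**Figure D1:**
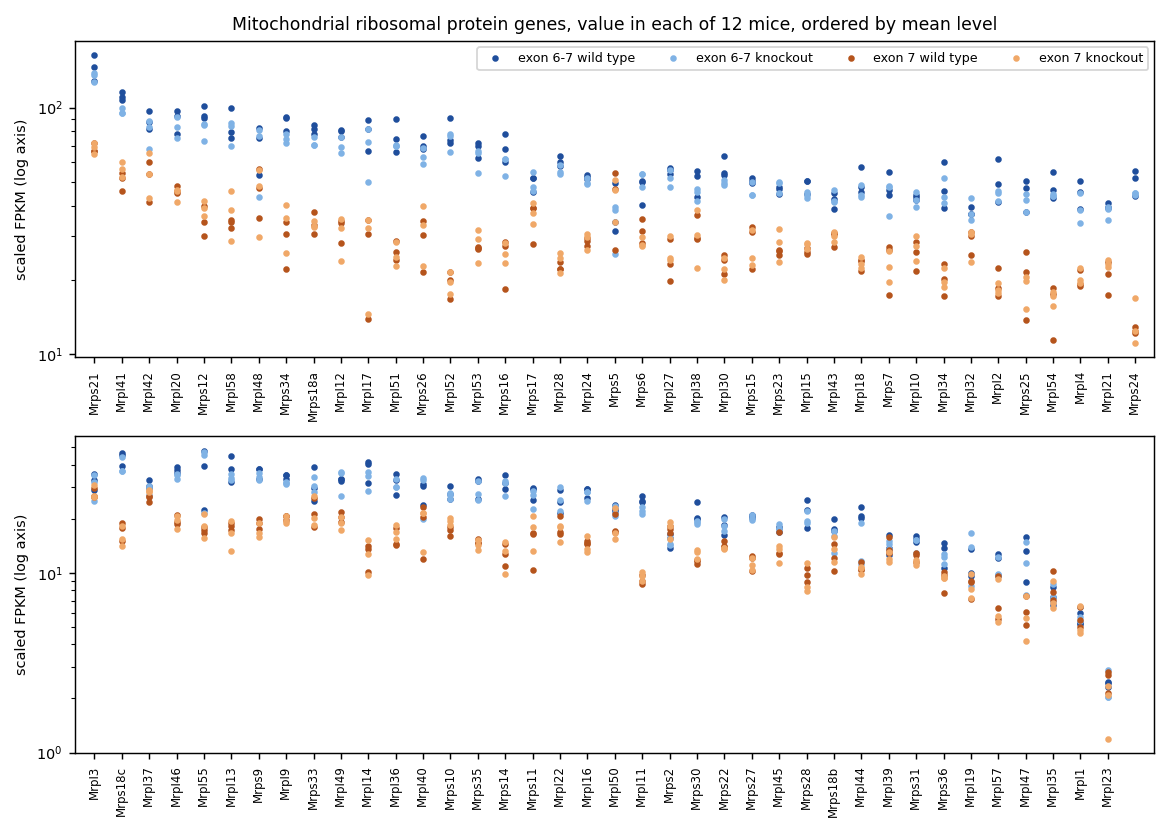
Scaled FPKM of each of the 77 genes (log axis), ordered by the mean over 12 mice, 1 point per mouse, coloured by group. Mrps21 is highest and Mrpl23 lowest, and for most genes the exon 6-7 mice (blue) lie above the exon 7 mice (orange).

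The line difference was the main feature of these genes. In the wild-type mice, 66 of the 77 genes were lower in the exon 7 line than in the exon 6-7 line and 0 were higher (limma adjusted p under 0.05), where 33.1% of all genes tested were lower and 34% higher. The median log2 difference over the 77 genes was -0.90, against -0.0036 over all genes tested. The knockout mice, which are other animals, gave 64 lower and 0 higher, against 30.2% and 31.5% of all genes, with a median of -0.81. Both comparisons called 63 of the 77 genes lower, against 28.2% of all genes tested. For 59 genes every one of the 6 exon 7 mice was below every one of the 6 exon 6-7 mice, which held for 27.4% of all genes. The reverse held for 0 of the 77 genes and for 29.9% of all. In bulk tissue, fewer cells of a type and less RNA per cell cannot be told apart.

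Summed over the 77 genes, the level was 3031 to 3517 FPKM in the exon 6-7 mice and 1588 to 1838 in the exon 7 mice. That was 0.637 to 0.692% and 0.367 to 0.447% of the summed value of nuclear genes. The ratio of the summed Mrpl to the summed Mrps genes overlapped between the lines, at 1.59 to 1.67 (exon 6-7) and 1.55 to 1.70 (exon 7).

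**Figure D2:**
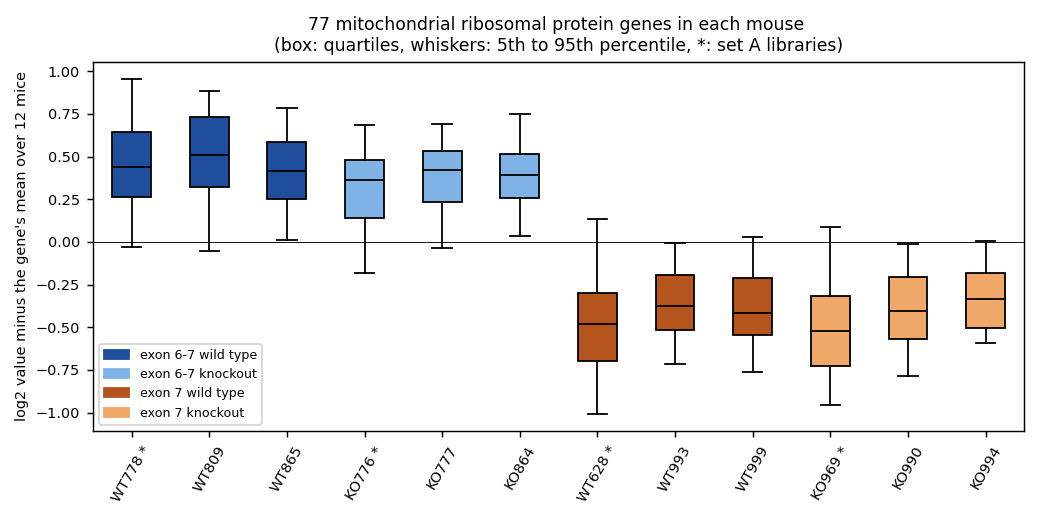
Spread of the 77 genes in each mouse, as the log2 value minus the mean of that gene over 12 mice (boxes are quartiles, whiskers the 5th to 95th percentile). The medians of the 6 exon 6-7 mice lie between 0.36 and 0.51 and those of the 6 exon 7 mice between -0.52 and -0.33.

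Mrpl52, a large subunit protein particular to mitochondria, had the largest fall. Its values were 90.9, 72.0 and 74.1 FPKM in the exon 6-7 wild types and 78.0, 76.4 and 66.2 in the knockouts, against 19.9, 21.5 and 16.6 in the exon 7 wild types and 21.6, 19.6 and 17.5 in the knockouts. Every exon 7 mouse was far below every exon 6-7 mouse, and the genotypes overlapped in each line. The log2 difference between wild types was -1.98 (SE 0.124, limma adjusted p = 1.08e-07).

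Mrps24, the counterpart of bacterial ribosomal protein S3 at the mRNA entry of the small subunit, came next. It stood at 55.2, 52.0 and 43.6 FPKM in the exon 6-7 wild types, 45.1, 44.2 and 45.0 in the knockouts, 12.4, 12.1 and 12.8 in the exon 7 wild types, and 11.1, 12.4 and 16.9 in the knockouts. The lines did not overlap, and the log2 difference between wild types was -1.92 (SE 0.133, limma adjusted p = 1.96e-07). Mrps24 shares exon sequence on its own strand with Urgcp.

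Mrpl54, a protein of the stalk base, was at 43.1, 54.6 and 46.5 FPKM in the exon 6-7 wild types and 11.4, 17.6 and 18.5 in the exon 7 wild types. All 3 exon 7 mice were below all 3 exon 6-7 mice (log2 difference -1.57, SE 0.151, limma adjusted p = 2.48e-06). Mrps34, a small subunit protein particular to mitochondria, went from 91.5, 91.0 and 80.4 FPKM to 22.1, 34.2 and 30.6. The log2 difference was -1.58 (SE 0.169, limma adjusted p = 5.73e-06), and Mrps34 overlaps Nme3 on its own strand. Mrpl17, a protein near the exit of the nascent chain, was at 66.4, 89.1 and 81.7 FPKM in the exon 6-7 wild types and at 13.8, 35.1 and 30.7 in the exon 7 wild types. It fell by 1.63 on the log2 scale with a wider error (SE 0.360, limma adjusted p = 0.00161). The error is pooled over the 4 groups, and in each group the set A mouse (WT778, KO776, WT628 and KO969) was below both of its group mates.

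The most abundant members also fell. Mrps21 stood at 127 to 163 FPKM in the 6 exon 6-7 mice (median 137) and 64.5 to 71.7 in the 6 exon 7 mice (median 68.0). The wild-type log2 difference was -1.08 (SE 0.0935, limma adjusted p = 1.11e-06). Mrpl41, a large subunit protein particular to mitochondria, went from 94.8 to 116 FPKM in the exon 6-7 mice to 45.8 to 60.1 in the exon 7 mice. Mrps12 went from 73.4 to 101 FPKM to 30.2 to 41.8. None of these 3 genes overlapped between the lines.

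By role, the fall was spread over both subunits, beside 33.1% of all genes tested lower and 34% higher. Of 28 large subunit proteins with a bacterial counterpart, 23 were lower in the exon 7 wild types (median log2 difference -0.93). Of 22 large subunit proteins particular to mitochondria, 18 were lower (median -0.81). The small subunit gave 14 of 16 proteins with a bacterial counterpart (median -0.98) and 10 of 10 without a direct one (median -0.80). All 5 proteins of the L7/L12 stalk and its base, where translation factors dock, were lower (Mrpl10, Mrpl11, Mrpl12, Mrpl53 and Mrpl54, median -1.30). Around the exit of the nascent chain 5 of 6 were lower (median -0.65), and in the central protuberance, which joins the subunits, 3 of 5 (median -0.65). These groups are small, were not compared with each other and share mice.

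The 3 Mrps18 paralogues occupy different places. Mrps18a, which sits in the large subunit, fell by 1.25 between the wild types on the log2 scale (SE 0.0862, limma adjusted p = 1.96e-07). Mrps18c, which takes the place of the bacterial protein in the small subunit, fell by 1.30 (SE 0.122, limma adjusted p = 2.08e-06). Mrps18b fell by 0.54 (SE 0.149, limma adjusted p = 0.00688), and in the knockouts its difference of -0.16 did not pass (limma adjusted p = 0.361). Mrps36, whose protein was later assigned to the 2-oxoglutarate dehydrogenase complex and not to the ribosome, fell by 0.46 (SE 0.124, limma adjusted p = 0.00606).

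The genes that were not called lower in the wild types were Mrpl1, Mrpl3, Mrpl19, Mrpl23, Mrpl35, Mrpl39, Mrpl40, Mrpl48, Mrpl50, Mrps2 and Mrps5. Mrps2, a small subunit protein with a bacterial counterpart, had values of 13.7, 15.6 and 16.5 FPKM in the exon 6-7 wild types and 17.6, 16.6 and 18.1 in the exon 7 wild types. It was the 1 gene of the 77 with all 3 exon 7 wild types above all 3 exon 6-7 wild types, which 35.6% of all genes showed, and its log2 difference of 0.19 did not pass (95% interval -0.032 to 0.41, limma adjusted p = 0.119). Mrps5, another of this kind, ran from 25.4 to 49.4 FPKM in the exon 6-7 mice and 26.5 to 54.4 in the exon 7 mice, which overlapped widely. Mrpl40 and Mrpl48, both of the central protuberance, had differences of -0.64 and -0.59 that did not pass (limma adjusted p = 0.0517 and 0.0818).

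**Figure D3:**
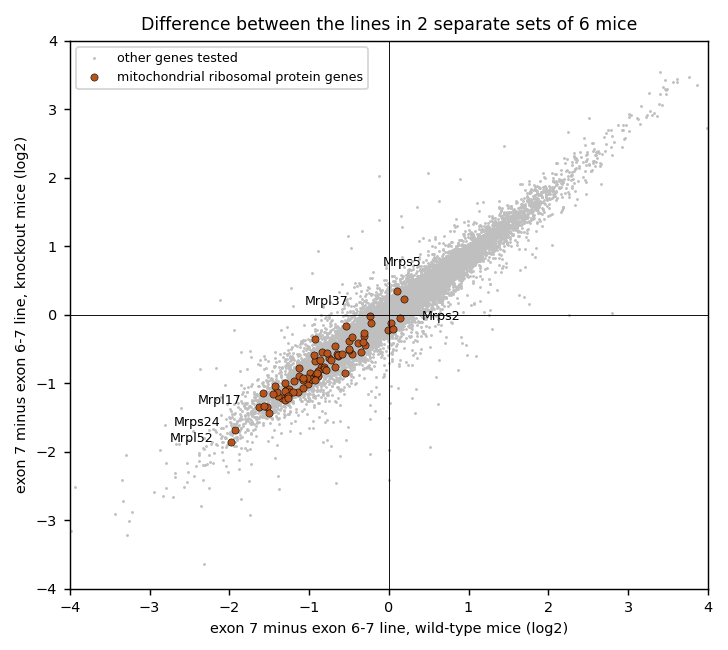
Log2 difference between the lines in the wild-type mice (x axis) and in the knockout mice (y axis) for all genes tested (grey) and the 77 genes (orange). The 77 genes lie almost entirely in the lower left part, with Mrpl52 and Mrps24 farthest down and Mrps2 and Mrps5 above 0 on both axes; a few grey points lie beyond the axes.

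Across all genes the line difference moved with transcript length and GC content. Over 14072 genes with a length, Spearman's correlation of the wild-type difference was 0.41 with length and -0.40 with GC content, and over the 77 genes it was 0.36 and -0.55. Genes measured in the same libraries are not independent, so these correlations are descriptive, and their cause was not tested. The 77 genes are short, with a median transcript length of 849.5 bases against 1398 for all genes, and from 418 to 3561. After removal of these trends from each library, 62 of the 77 genes were called lower and 1 was called higher (Mrpl23, 0.47, limma adjusted p = 0.0376). Of all genes tested, 31.6% were then lower and 29.8% higher. The median of the 77 genes was -0.72, against -0.045 for all genes. Mrps2 then stood at -0.13 (limma adjusted p = 0.235). The part of length and GC content in each gene's difference was not tested further.

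**Figure D4:**
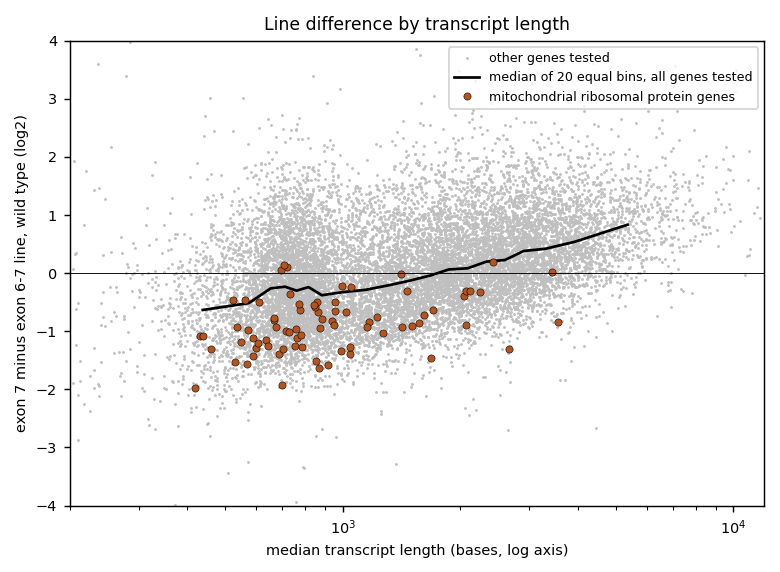
Log2 difference between the lines in wild-type mice against median transcript length (log axis) for all genes tested (grey, with the median of 20 equal bins in black) and the 77 genes (orange). Short genes of all kinds tend to lie below 0, and 72 of the 77 genes lie there.

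Other genes of mitochondrial translation did not all fall with the ribosomal proteins. Of 5 mitochondrial ribosomal proteins with other symbols, 4 were lower in the exon 7 wild types (median -1.26). Aurkaip1, a small subunit protein, went from 93.6, 96.9 and 92.5 FPKM to 27.9, 31.7 and 33.6 (log2 difference -1.57, limma adjusted p = 5.2e-08). Ptcd3, the exception, was at 14.5, 14.3 and 14.4 FPKM against 16.6, 15.4 and 14.5 (log2 difference 0.10, limma adjusted p = 0.376). Of 20 genes for assembly of the ribosome and modification of its RNA, 13 were lower and 2 higher (median -0.57), with Mrm2, an rRNA methyltransferase, at -1.09. Of 17 mitochondrial aminoacyl-tRNA synthetases 10 were lower and 2 higher (median -0.41). Sars2, the gene facing Mrps12, was one of the lower ones (-0.69, limma adjusted p = 0.000624). Of 12 translation factors 3 were lower and 5 higher (median 0.09), beside 33.1% and 34% of all genes tested, with the elongation factor Gfm1 higher by 0.76 on the log2 scale (limma adjusted p = 1.49e-05).

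Of 11 genes for transcription, replication and messenger stability of mitochondrial DNA, 4 were lower and 2 higher (median -0.19), a share of lower genes near that of all genes tested (33.1%). Slirp, which binds mitochondrial messengers, went from 47.0, 51.4 and 42.2 FPKM to 14.2, 13.5 and 12.5 (-1.73, limma adjusted p = 5.21e-08). Of 8 regulators of nuclear mitochondrial genes, 4 were higher and 1 lower in the exon 7 wild types (median 0.45), beside 34% and 33.1% of all genes tested. Gabpa, a subunit of the GA-binding protein, went from 4.66, 2.98 and 5.35 FPKM to 15.2, 13.8 and 15.8 (1.61, limma adjusted p = 3.17e-06). Ppargc1b, a coactivator of mitochondrial biogenesis, was also higher (1.52, limma adjusted p = 2.62e-06).

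Of the 13 messengers of mitochondrial DNA, which this ribosome translates, 5 were higher and 3 lower (median 0.52). Of all genes tested 34% were higher and 33.1% lower. The 2 ribosomal RNAs had differences of -0.32 for mt-Rnr1, which did not pass (limma adjusted p = 0.0704), and -0.38 for mt-Rnr2 (limma adjusted p = 0.011). Libraries made from poly(A) RNA read ribosomal RNA only in part.

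Markers of cell types were also compared between the lines, where 34% of all genes tested were higher in the exon 7 wild types and 33.1% lower. Of 8 neuronal markers 5 were higher and 1 lower in the exon 7 wild types, with a summed level of 2177 to 2553 FPKM in the exon 6-7 line against 2849 to 3311. Of 6 oligodendrocyte markers 4 were lower and 0 higher, with sums of 4463 to 6382 against 4470 to 5126, which overlap. For 5 astrocyte markers the counts were 3 higher and 2 lower, for 5 microglial markers 1 and 2, for 3 endothelial markers 2 and 1, for 4 blood markers 0 and 3, for 8 choroid plexus markers 3 and 0, and for 5 meningeal markers 1 and 0. No marker of these lists was at 0 in any library. Their part in the fall of the 77 genes was not tested.

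The knockout of Shank2 gave no call among these genes. In simulated data the exon 6-7 test recovered 2% of genes changed by 0.25 on the log2 scale and 40% changed by 0.5. It recovered 62% of genes changed by 1 and 76% changed by -1, with 50 genes per amount. Small changes could therefore go uncalled, and so could some changes as large as 1 on the log2 scale. In the exon 6-7 line 0 of the 77 genes passed (limma), as did 0.0141% of all genes tested, and 3 of the 77 had an unadjusted p under 0.05, against 4.1% of all genes. The median log2 fold change was -0.10 against -0.0020 for all genes, and 64 genes were below 0. It was -0.052 with quantile normalization (59 genes below 0), and -0.045 with TPM (55 below 0), where the median of all genes was 0.050. For 10 genes all 3 knockouts were below all 3 wild types, against 6.3% of all genes, and for 0 genes they were above, against 5.01%. An exact permutation test of 3 mice against 3 cannot give a p below 0.1.

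In the exon 7 line 0 of the 77 genes passed (limma), as did 0% of all genes tested, and 0 had an unadjusted p under 0.05, against 3.45% of all genes. The median was 0.0015, against -0.0085 for all genes, and it ran from -0.034 without WT628 to 0.049 without KO969. Knockouts were all below the wild types for 1 gene, Mrps22, against 3.77% of all genes, and all above for 3 (Mrpl37, Mrps10 and Mrps30), against 3.27%. The mean effect over both lines gave 0 calls among the 77 genes, against 0.0141% of all genes, with 1 unadjusted p under 0.05 against 3.62% of all genes. The difference of the 2 effects gave 0 calls among them, against 0.00703% of all genes, with 5 unadjusted p under 0.05 against 3.9% (Mrpl11, Mrpl41, Mrpl44, Mrps12 and Mrps30).

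The summed level of the 77 genes in the exon 6-7 line was 3267 to 3517 FPKM in the wild types and 3031 to 3231 in the knockouts, without overlap. Their median log2 deviation from the mean over 12 mice did overlap, at 0.42 to 0.51 in the wild types and 0.36 to 0.42 in the knockouts, with KO777 above WT865. Between the 2 set A mice of that line, 1 knockout and 1 wild type, the median log2 difference of the 77 genes was -0.16, and between the other 4 mice it was -0.067. In the same comparison all 8 choroid plexus markers had higher values in the knockouts without passing the test. Their summed level was 42.5 to 8629 FPKM in the 3 wild types, lowest in WT865, and 6751 to 8431 in the 3 knockouts. All 6 oligodendrocyte markers had lower values without passing, with sums of 5070 to 6382 FPKM in the wild types and 4463 to 4612 in the knockouts. All 5 meningeal markers were at higher values without passing, with sums of 40.8 to 48.8 FPKM in the wild types and 58.4 to 63.9 in the knockouts, which do not overlap. All 5 microglial markers were at lower values without passing, with overlapping sums of 60.2 to 78.1 and 59.1 to 68.6 FPKM. All 4 blood markers were at higher values without passing, with overlapping sums of 234 to 449 and 334 to 418 FPKM. Their part in the shift of the ribosomal protein genes was not tested.

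Mrpl44, a large subunit protein with an RNase III fold, had the smallest p of the 77 genes. It stood at 23.1, 20.9 and 20.2 FPKM in the exon 6-7 wild types and at 11.7, 11.1 and 18.9 in the knockouts. KO776 and KO777 were near the level of the exon 7 line, where the 6 mice had 9.79 to 11.4 FPKM, whereas KO864 was close to the wild types. The log2 fold change was -0.62 (SE 0.156, 95% interval -0.96 to -0.28) and did not pass (limma adjusted p = 0.932). Without KO864 it was -0.85 and passed (limma adjusted p = 0.0111), so that the call rests on this 1 mouse. Over all 24 alternatives the fold change was -0.85 to -0.49 and the adjusted p 0.0111 to 1.

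Mrpl44 lies at chr1:79776018-79781445 on the plus strand (GRCm38), and its start overlaps an exon of Wdfy1 on the minus strand. Because of these values its neighbours were looked at, after the data were seen: 5 tested genes, Mrpl44 included, lie within 500000 bases. Wdfy1 stood at 7.37, 6.75 and 3.81 FPKM in the exon 6-7 wild types and at 11.7, 9.71 and 3.31 in the knockouts. Serpine2, a protease inhibitor gene next to Mrpl44, stood at 92.9, 101 and 107 FPKM and at 45.2, 44.5 and 97.8. KO776 and KO777 were below the other exon 6-7 mice for Mrpl44 and Serpine2 and above them for Wdfy1, while KO864 was near WT865 for all 3 genes. Scg2 and Cul3, the other two, overlapped between the groups. None of the 5 passed the test in the exon 6-7 line.

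The other members with the smallest p in the exon 6-7 line were all small. Among those below 0, Mrpl11, a stalk protein, was at 24.9, 26.9 and 25.2 FPKM in the wild types and 22.0, 23.3 and 21.3 in the knockouts (-0.20, 95% interval -0.38 to -0.022). Mrpl41 was at 107, 116 and 111 FPKM against 99.5, 94.8 and 95.5 (-0.20, 95% interval -0.38 to -0.018). Mrps18a (-0.17) and Mrps12 (-0.22) followed, with no overlap between the genotypes in these mice. Above 0 the smallest p belonged to Mrps6 (0.14), Mrpl19 (0.19), Mrpl1 (0.078), Mrps23 (0.058) and Mrpl43 (0.033), each with overlapping mice and each with a limma adjusted p of 0.9998. In the exon 7 line Mrpl41 and Mrps12 were above 0, at 0.15 and 0.17.

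In the exon 7 line Mrps10, a small subunit protein with a bacterial counterpart, was at 15.9, 18.1 and 17.2 FPKM in the wild types and 20.2, 19.4 and 18.4 in the knockouts. The groups did not overlap, but the fold change of 0.17 did not pass (95% interval -0.019 to 0.35). Mrpl37 was at 26.6, 26.7 and 24.8 FPKM against 29.1, 28.3 and 28.6 (0.13, 95% interval -0.035 to 0.30), and Mrpl21 was at 0.17. Below 0 were Mrpl23 (-0.32), Mrpl39 (-0.18), Mrps6 (-0.15), Mrps9 (-0.12) and Mrps31 (-0.10), with 95% intervals that include 0.

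The set A libraries were also set against the others within each line. In the exon 7 line, 27 of the 77 genes were lower in both set A mice, 1 of each genotype, than in the other 4 mice, against 25% of all genes, and 9 were higher, against 24.7%. In the exon 6-7 line 15 were lower, against 13.7%, and 9 higher, against 16.8%. In both lines at once 11 genes were lower, against 7.43% of all genes, and 5 were higher, against 9.56%. Set A was defined from these data, so these counts carry no test.

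Mrpl17 had the largest such difference in the exon 7 line: WT628 and KO969 were at 13.8 and 14.5 FPKM and the other exon 7 mice at 30.7 to 35.1, while WT778 and KO776 were at 66.4 and 50.1 and the other exon 6-7 mice at 72.5 to 89.1. Mrpl48 was at 35.7 and 29.8 FPKM in the set A mice of the exon 7 line and 47.1 to 56.5 in the others, and at 53.4 and 43.5 against 75.5 to 82.3 in the exon 6-7 line, where its difference was the largest (-0.70, against -0.48 for Mrpl17). Mrpl57, a small protein particular to mitochondria, went the other way, with 9.63 and 9.29 FPKM in the set A mice of the exon 7 line and 5.33 to 6.39 in the others. Mrpl55, also particular to mitochondria, followed neither genotype nor set A: in the exon 6-7 line it was at 22.3, 39.3 and 47.9 FPKM in the wild types and 45.2, 21.5 and 47.3 in the knockouts. With a term for the library sets in the fit, 70 of the 77 genes were lower in the exon 7 wild types. Of all genes tested, 35.6% were then lower and 36.3% higher.

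**Figure D5:**
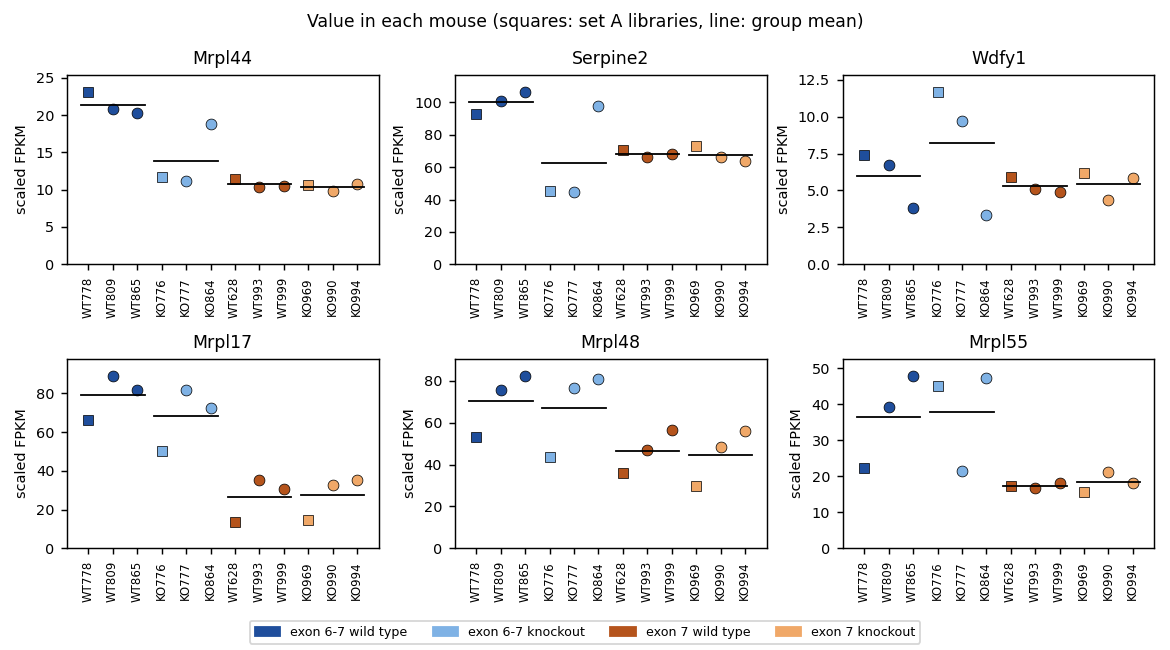
Scaled FPKM in each of the 12 mice for Mrpl44, its neighbours Serpine2 and Wdfy1, and Mrpl17, Mrpl48 and Mrpl55 (squares are set A libraries, lines group means). KO776 and KO777 stand apart from KO864 for Mrpl44 and Serpine2, and squares lie lowest in each group for Mrpl17 and Mrpl48.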

How the data were processed

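The authors deposited 1 table of FPKM per gene and mouse, with Ensembl release 74 identifiers per the file headers. CASAVA, GSNAP, Cufflinks and mm10 are named in the submitters' processing notes, with no role or order. The sources used here give no settings for strand or multiple mapping. Each library was normalised on its own by the authors. Here, unlisted genes were set to 0 and libraries were rescaled by the median of ratios over 12511 genes (factors 0.919 to 1.07). Tests used log2(scaled FPKM + 1) of genes averaging 1 FPKM or more, which understates changes of low genes, and 91 small RNAs of up to 200 bases were left out. The test was limma 3.58.1 (limma-trend, R 4.3.3) with 4 group means over 12 libraries (8 residual degrees of freedom, prior 3.84), two-sided, with Benjamini-Hochberg adjustment over all genes tested and a threshold of 0.05. Intervals are at 95%. The scripts were tested on simulated data. Symbols, lengths and overlaps came from GENCODE M21 (GRCm38, the assembly of mm10) and promoters from RefSeq (GRCm38.p6), with Python 3.11.15, pandas 2.3.3 and matplotlib 3.10.9. Mrpl33 is not analysed here.

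The genes, lists and alternatives were chosen with earlier results of these data known. Named were the 5 genes with the smallest p in each direction of each knockout comparison, the 5 largest changes that passed between the wild types, the 5 highest and lowest levels, the Mrps18 genes and Mrps36, and 2 genes of each list. Mrps2, Mrps5, Mrpl35, Mrpl40, Mrpl48, Mrpl55, Ptcd3, Sars2, Wdfy1, Serpine2, Scg2 and Cul3, the genes counted in lists of 10 or fewer, and the wild-type values of Mrpl44, Mrps12, Mrps21 and Mrpl41 were picked with their values in view. The alternatives tried were 0.1 and 5 as pseudocount, no filter or 5 FPKM, FPKM as deposited, quantile normalization, TPM, each line alone, array weights, robust empirical Bayes, a library set term, removal of length and GC trends, and each mouse left out.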

Additional observations from a re-analysis of the deposited data

How the results depend on the processing

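Most values kept their direction and their side of the threshold under every alternative. The number of genes lower between the wild types was 62 to 70 except with TPM (58), and 63 to 68 with a mouse left out. Of all genes tested in each alternative, 20.2% (no filter) to 39.2% (FPKM as deposited) were called lower, and 25.7% with TPM. With a mouse left out this share was 29.95 to 33.94%. The exceptions follow, and their cause was not tested. Without KO864, 1 gene (Mrpl44) passed in the exon 6-7 knockouts, where leaving out a mouse gave 0 to 1. The median difference between the wild types, -0.90, was -0.78 with a pseudocount of 5, -1.04 with FPKM as deposited, -0.79 with TPM and -0.72 with length and GC trends removed, and -0.93 to -0.86 with a mouse left out. FPKM as deposited and TPM moved the median of all genes to -0.14 and 0.13, so relative to it the 77 genes stood at -0.91 in both. The median of the 77 genes in the exon 6-7 knockouts, -0.10, was -0.052 with quantile normalization and -0.045 with TPM. The exon 7 knockout median, 0.0015, turned to -0.034 without WT628, -0.030 without KO994, -0.0079 without KO990 and -0.0088 with length and GC trends removed, and was 0.049 without KO969 and 0.050 with TPM. Mrpl43 in the exon 6-7 knockouts turned to -0.026 without WT865 and to -0.018 without KO776, in a range of -0.026 to 0.081 with a mouse left out (0.081 without WT809). Mrps2 between the wild types turned to -0.13 with length and GC trends removed and passed as higher with TPM (0.34, limma adjusted p = 0.0107). Mrps18b no longer passed with length and GC trends removed (-0.23, limma adjusted p = 0.111). Between the knockouts Mrps2 was called higher with TPM, with array weights and without KO994, and Mrps5 with the library set term. No paired analysis was possible because no replicate number occurs in more than 1 group. The term for library sets, defined from the data, is no pairing of mice by the labels, and with it 0 of the 77 genes passed in either knockout comparison. The read depth is unknown, so no counting error is given.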
